A study of Mus musculus with 4 samples.

Results

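Fatty acid oxidation and peroxisome genes were followed here in mouse kidney nuclei. The set held 45 genes, chosen by symbol for known roles in lipid burning and peroxisomes, with earlier results of these data known. Shares of members set beside those of all genes therefore describe the set and are no test. All 45 were found among the 24468 genes of the cluster table and among the 21312 genes of the proximal tubule table. The treated mice, Cis9w, were male C57BL/6 animals that received 8 mg/kg of the platinum drug cisplatin once a week for 4 injections and were sampled at week 9 counted from the first dose. Untreated mice of the same study, CT9w, were the comparison. Each group had 2 samples of cortex with outer medulla, from which RNA of single nuclei was counted as unique molecular identifiers (UMIs) with a 3' droplet kit. Both tables hold values pooled over nuclei, so no spread between animals could be computed and no test across samples was possible. The labels do not say whether 1 or both samples of each group entered the proximal tubule table, so that comparison may be between single samples.

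Fatty acids are the main fuel of the proximal tubule. They are coupled to coenzyme A, carried into mitochondria by the carnitine shuttle and shortened there by beta-oxidation. Peroxisomes shorten very long and branched chains and pass the products on, and their enzymes are imported from the cytosol by peroxins. Many of these genes are known targets of PPARα, a nuclear receptor encoded by Ppara, with Ppargc1a encoding a coactivator of mitochondrial genes.

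The proximal tubule pool held 8557662 UMIs in Cis9w and 5123727 UMIs in CT9w. The 17 clusters held between 254460 UMIs in mixed-2 and 7425098 UMIs in PT-S2/S3. Levels are the authors' averages in normalised UMIs per nucleus, and 3 UMIs equal an average of 0.000981 in Cis9w and of 0.00164 in CT9w. Ratios are given with 95% Clopper-Pearson intervals of the UMI sums, which cover counting error only and leave out differences between nuclei and between animals. With 1 pool per group, a gene was counted as different when it was past 2-fold and its mean level over both pools reached 0.0154 normalised UMIs per nucleus, the median of all genes. The proximal tubule label held in both pools, as the 8 tubule markers summed to 37.9 normalised UMIs per nucleus in Cis9w and 36.4 in CT9w. A lower pool average of a gene can come from fewer nuclei of a tubule segment or from less of that gene's RNA per nucleus. Pooled values cannot tell these apart.

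The promoters of the 4 members past 2-fold in Cis9w are shown because 3 of them were lower together and 1 was higher. Sequences are from RefSeq on GRCm38.p6, the assembly also called mm10, and 40 of the 45 members had at least 1 window there. Each is read on the gene's own strand, ends before the earlier of its RefSeq and GENCODE starts, and has its CpG pairs in capitals. The stretch of Acsm3 lies at chr7:119760673-119760922 (plus strand), that of Ehhadh at chr16:21787835-21788084 (minus strand), that of Crot at chr5:8997325-8997396 (minus strand) and that of Hao2 at chr3:98893240-98893480 (minus strand).
Acsm3: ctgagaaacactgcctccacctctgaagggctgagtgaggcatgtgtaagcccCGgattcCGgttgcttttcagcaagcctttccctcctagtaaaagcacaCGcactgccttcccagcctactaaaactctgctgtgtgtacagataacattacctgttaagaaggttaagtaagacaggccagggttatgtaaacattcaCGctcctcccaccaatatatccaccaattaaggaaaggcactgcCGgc
Ehhadh: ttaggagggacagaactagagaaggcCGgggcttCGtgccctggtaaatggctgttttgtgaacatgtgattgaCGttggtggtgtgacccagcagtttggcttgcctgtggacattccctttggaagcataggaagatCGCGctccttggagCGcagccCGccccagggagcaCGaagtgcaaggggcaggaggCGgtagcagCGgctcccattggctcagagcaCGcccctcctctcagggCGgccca
Crot: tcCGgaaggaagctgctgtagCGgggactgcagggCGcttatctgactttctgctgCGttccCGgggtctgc
Hao2: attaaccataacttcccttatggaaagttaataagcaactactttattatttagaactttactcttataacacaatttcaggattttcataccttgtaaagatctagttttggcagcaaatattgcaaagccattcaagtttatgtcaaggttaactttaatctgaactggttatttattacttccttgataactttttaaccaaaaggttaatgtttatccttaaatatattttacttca
CpG pairs numbered 5 in 250 bases for Acsm3, 12 in 250 bases for Ehhadh, 5 in 72 bases for Crot and 0 in 241 bases for Hao2.

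PPARα is known to bind pairs of the letters AGGTCA set 1 base apart. In windows of 300 bases (250 before and 50 after the start, both strands), the pair AGGTCANAGGTCA was in 0 of 47 member windows, and in 0.0396% of all 32851 windows. The single AGGTCA was in 8 of 47 member windows (17.0%), against 16.3% of all windows, so the members' share was near that of all genes. The windows of Acsm3, Ehhadh, Crot and Hao2 did not hold it. The matches of 6 members before a RefSeq start are shown with the letters in capitals, where TGACCT is the same word on the opposite strand. They lie at chr19:3323195-3323224 (plus strand) for Cpt1a, chr3:153944875-153944893 (minus) for Acadm, chr2:103485340-103485369 (minus) for Cat, chr12:84038354-84038378 (plus) for Acot4, chr7:119617693-119617722 (plus) for Acsm1 and chr11:70015498-70015527 (minus) for Acadvl. Those of Cpt1a and Acsm1 lie inside the GENCODE gene, downstream of its start, and the other 4 lie outside it. A match is a description of letters and not a binding site.
Cpt1a: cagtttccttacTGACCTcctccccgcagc
Acadm: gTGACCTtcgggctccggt
Cat: tgtgactctcagAGGTCAgagaacaccagc
Acot4: agccccgaagcaTGACCTttggccg
Acsm1: tgcactgttttcTGACCTcttgactaaacg
Acadvl: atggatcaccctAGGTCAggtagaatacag

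Across the 17 clusters, most members were highest in proximal tubule nuclei. Of the 44 members at the expression floor of the cluster table, 30 had their highest average in 1 of the 5 other proximal tubule clusters (PT-S1, PT-S2, PT-S2/S3, PT-S3-1 and PT-S3-2), against 20.2% of all 12234 genes at that floor. None had it in PT-injury/repair, the sixth. The members' median share of the sum of their 17 cluster averages that lay in those 5 clusters was 41.4%, against 26.1% for all genes. With clusters weighted by their size-factor sums it was 72.7%, against 57.1% for all genes. As the clusters were made from the same nuclei and genes, these values describe the clusters and are no test.

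Synthetases that couple medium-chain acids to coenzyme A had most of their summed averages in the 5 clusters. Acsm1 had a level of 1.62 normalised UMIs per nucleus in PT-S3-2 and 0.805 in PT-S1, the highest and lowest of the 5 clusters, against 0.0331 in TAL, the thick ascending limb, and 0.0243 in CNT, the connecting tubule. The 5 clusters held 81.1% of the summed averages of Acsm1, 78.3% for Acsm3, 77.9% for Acsm5 and 73.0% for Acsm2. The shares of Acox2, at 77.6%, and Ppara, at 73.7%, lay in the same range. Acsm2 averaged 2.16 in PT-S3-2 and 4.83 in PT-S1. In clusters not named for the proximal tubule it was still 1.08 in Podocyte, 1.06 in Immune cells and 2.34 in mixed-2. Lrp2, a proximal tubule marker, averaged 1.23 in Podocyte, 0.906 in Immune cells and 2.54 in mixed-2, so mixed-2 may hold tubule nuclei. Droplets can hold free RNA from other nuclei. Kap, an abundant tubule transcript, averaged 2.50 in Podocyte and 2.49 in Immune cells, and the part of free RNA in the members' levels there was not tested.

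Some members were highest in other cell types. Ppargc1a averaged 2.99 normalised UMIs per nucleus in TAL and 2.06 in DCT+CNT, named for distal convoluted and connecting tubule together. In the 5 proximal tubule clusters it averaged 0.289 to 0.951. Hadha and Hadhb, the subunits of the trifunctional protein of mitochondrial beta-oxidation, were highest in TAL as well, with 0.282 for Hadha and 0.139 for Hadhb. Cpt1a, the entry enzyme of the carnitine shuttle, reached 0.721 in DCT+CNT, and Acsl1, a long-chain acyl-CoA synthetase, reached 0.680 in TAL. The other mitochondrial oxidation genes, Acadm, Acadl, Acadvl, Acads, Hadh, Acaa2, Eci1 and Decr1, were each highest in a proximal tubule cluster. For Acadm, Acadl, Acadvl and Acads that cluster was PT-S3-1. Acadm and Acadl, at 0.483 and 0.207 in PT-S3-2, lay above every cluster outside the proximal tubule there too. In the rest of the 5 clusters Acadvl averaged 0.0152 to 0.0231, below its 0.0387 in Immune cells. Acads averaged 0.0167 to 0.0252 in them, below its 0.0391 in EC1.

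Binding proteins and fuel-choice genes followed further types. Fabp4, a fatty acid binding protein of capillary endothelium and fat, averaged 0.228 in EC1 and 0.222 in EC2, the endothelial clusters, and at most 0.0376 in any proximal tubule cluster. Ucp2, a mitochondrial carrier common in macrophages, was highest in Immune cells at 0.0939. Pdk4, a pyruvate dehydrogenase kinase gene, was highest in DCT+CNT at 0.106. Acot3, a peroxisomal thioesterase, was highest in IC-A/IC-B, the intercalated cells, at 0.146, against 0.0120 to 0.0338 in the 5 proximal tubule clusters. The thioesterase genes Acot1, Acot2, Acot3 and Acot4 lie next to each other on chromosome 12, and 19.1% of the 50-base words in Acot3 transcripts also occur in other genes, so its UMIs may be shared.

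**Figure D1:**
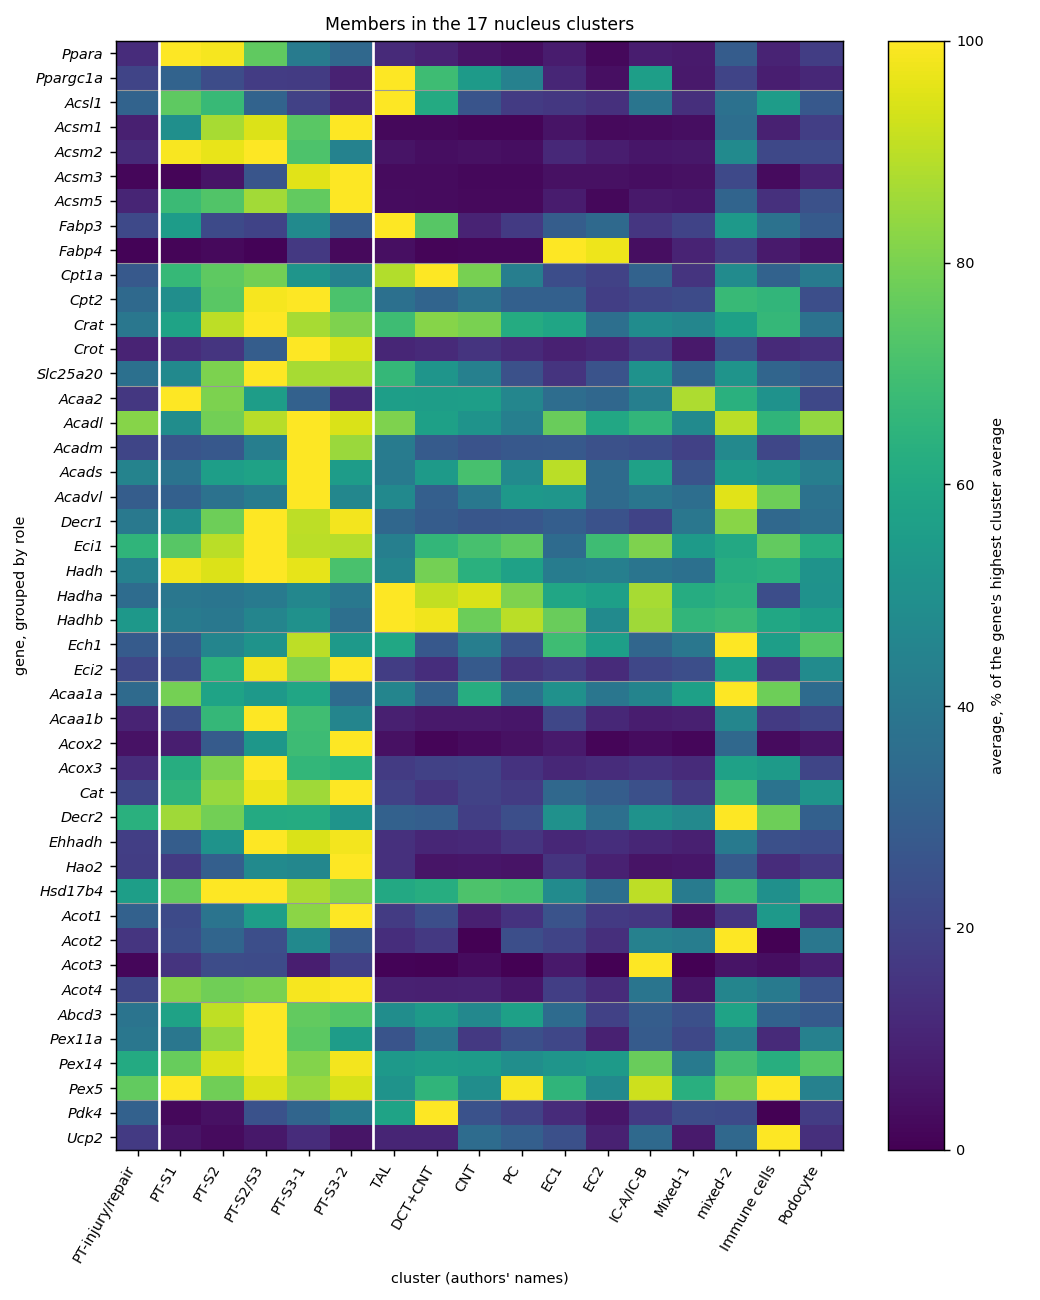
Average of each of the 45 members (rows, grouped by role) in the 17 clusters (columns), coloured as a percentage of that gene's highest cluster average; white lines set off PT-injury/repair and the other 5 proximal tubule clusters. The Acsm genes are brightest in proximal tubule columns, while Ppargc1a, Hadha and Hadhb peak in TAL and Fabp4 in EC1 and EC2.

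Along the proximal tubule some members were higher in the last segment and some in the first. Of 42 members at the floor of this comparison, 10 were past 2-fold higher in PT-S3-2 than in PT-S1, against 11.8% of all 12239 genes, and 6 were past 2-fold lower, against 9.32%. The other 26 were not past 2-fold. Among the 5 clusters, PT-S2/S3 held the highest average of 13 of the 45 members, against 12 in PT-S3-1, 10 in PT-S3-2, 8 in PT-S1 and 2 in PT-S2. With PT-S3-1 in place of PT-S3-2 the counts were 17 and 3. The 10 were Acsm3, Crot, Acox2, Hao2, Acadm, Ehhadh, Eci2, Acot1, Acsm1 and Pdk4. The 6 were Ppara, Ppargc1a, Acsl1, Acsm2, Acaa1a and Acaa2. Some markers of other cell types were raised in PT-S3-1. Slc12a1, a thick limb marker, averaged 2.23 there, against 0.243 to 0.383 in the rest of the 5 clusters. Slc12a3, a distal convoluted tubule marker, averaged 1.16, against 0.0937 to 0.261. Kap averaged 8.025, against 0.868 to 1.74. Of the 12, only 6 were highest in PT-S3-1 among all 17 clusters. Fabp4, Ucp2, Hadha, Hadhb, Acot2 and Ech1 were highest outside the proximal tubule clusters. For PT-S1 it was 2 of its 8. The part of RNA from other nuclei in the PT-S3-1 counts was not tested.

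Acsm3, another medium-chain acyl-CoA synthetase, had the widest difference of the 42, with averages of 0.0107 in PT-S1, 0.0399 in PT-S2, 0.196 in PT-S2/S3, 0.713 in PT-S3-1 and 0.745 in PT-S3-2. Its PT-S3-2 average was 69.4 times that of PT-S1 (48.1 to 104). Crot, the carnitine octanoyltransferase that moves shortened chains out of peroxisomes, averaged 0.143, 0.175, 0.331, 1.13 and 1.06 in the same order. Acox2, the peroxisomal oxidase of branched chains and bile acid precursors, averaged 0.0456, 0.153, 0.282, 0.366 and 0.535. Each of these 3 genes was lowest in PT-S1 among the 5 clusters.

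Hao2, a peroxisomal oxidase of 2-hydroxy acids, was at 0.699 in PT-S3-2 and 0.120 in PT-S1, a ratio of 5.84 (5.16 to 6.62). Ehhadh, the bifunctional enzyme of peroxisomal beta-oxidation, was 3.34 times as high in PT-S3-2 as in PT-S1 (2.92 to 3.84). Acadm, the medium-chain acyl-CoA dehydrogenase, was 3.26 times as high (2.89 to 3.67).

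The regulators ran the other way. Ppara averaged 1.85 in PT-S1, 1.83 in PT-S2, 1.40 in PT-S2/S3, 0.769 in PT-S3-1 and 0.625 in PT-S3-2. Ppargc1a averaged 0.951, 0.696, 0.533, 0.517 and 0.289 in the same order. Acaa2, the mitochondrial thiolase, was 0.0203 in PT-S3-2 and 0.174 in PT-S1, and Acsl1 was 0.0769 in PT-S3-2 and 0.510 in PT-S1. Among these 5 clusters Ppara, Ppargc1a, Acaa2, Acsl1 and Cpt1a were lowest in PT-S3-2, while Ehhadh and Acadm were lowest in PT-S1.

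**Figure D2:**
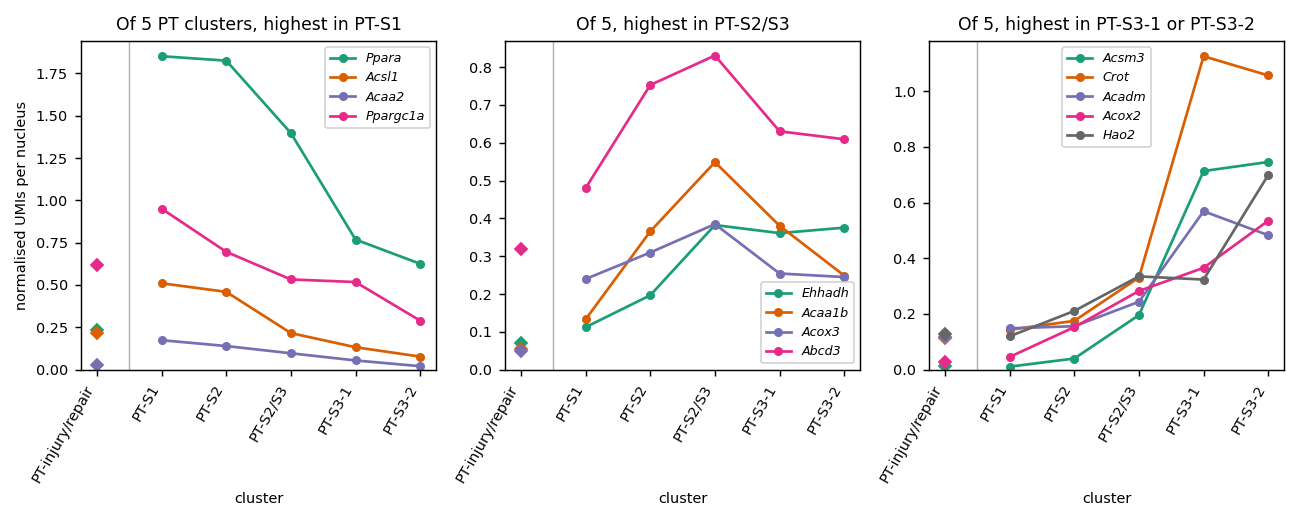
Averages in normalised UMIs per nucleus (y axes, each from 0) of 13 members in PT-injury/repair (diamonds) and in the 5 other proximal tubule clusters (joined circles). Ppara and Acaa2 are highest in PT-S1, Abcd3 and Acaa1b in PT-S2/S3, and Acsm3 and Crot in PT-S3-1 or PT-S3-2.

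In PT-injury/repair, the cluster named for injured tubule, most members were lower than in the other 5 proximal tubule clusters pooled. Of 43 members at the floor, 24 were past 2-fold lower, against 10.2% of all 12234 genes, and 1 was past 2-fold higher, against 21.8%. The median log2 ratio of the members was -1.07, against 0.22 for all genes. For 29 of the 43 the PT-injury/repair average lay below each of the 5 other averages, which held for 22.1% of all genes. All members together took 0.226% of the UMIs in PT-injury/repair and between 0.674% (PT-S1) and 0.820% (PT-S2/S3) in the other 5.

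Among the activation genes the 4 medium-chain synthetases were past 2-fold lower. Acsm3 averaged 0.0122 in PT-injury/repair (10 UMIs) and 0.242 in the other 5 clusters, 19.9-fold lower (10.8 to 41.5). Acsm1 averaged 0.145 in PT-injury/repair and 1.33 in the others, Acsm2 0.576 and 4.31, and Acsm5, a further medium-chain synthetase, 0.0586 and 0.457. Acsl1, with 0.217 and 0.307, was not past 2-fold. The Acsm genes were thus 7.47-fold to 19.9-fold lower, while the long-chain synthetase differed less.

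All 5 carnitine shuttle genes were past 2-fold lower. Crot averaged 0.112 in PT-injury/repair and 0.423 in the others. Cpt1a averaged 0.203 in PT-injury/repair and 0.490 in the others, 2.42-fold lower (2.07 to 2.84). Cpt2, Slc25a20 and Crat, which encode the inner-membrane transferase, the carnitine carrier and the acetyltransferase, were 2.11-fold to 2.26-fold lower.

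Peroxisomal oxidation genes were past 2-fold lower for 6 of 9 members. Acox2 averaged 0.0256 in PT-injury/repair and 0.246 in the others, 9.59-fold lower (6.26 to 15.5). Acaa1b, a peroxisomal thiolase, was 6.55-fold lower, and Acox3, an oxidase of branched chains, was 6.22-fold lower. Cat, the catalase that removes the hydrogen peroxide these oxidases make, averaged 0.112 in PT-injury/repair and 0.467 in the others. Ehhadh was 3.92-fold lower (3.03 to 5.18) and Hao2 2.48-fold lower (2.04 to 3.04). The other 3 peroxisomal oxidation genes, Hsd17b4, Acaa1a and Decr2, were 1.09-fold to 1.69-fold lower.

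Of the 10 mitochondrial oxidation genes, 4 were past 2-fold lower, namely Acaa2, Acadm, Hadh and Decr1. Acadl, the long-chain dehydrogenase gene, averaged 0.179 in PT-injury/repair and 0.173 in the others, with a ratio of 1.04 (0.871 to 1.23). Hadhb had a ratio of 1.26 (0.954 to 1.64) and Hadha of 0.881 (0.696 to 1.10). For these 3 genes the counting intervals include 1.

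The regulators differed from each other in the same contrast. Ppara averaged 0.232 in PT-injury/repair and 1.43 in the others, 6.15-fold lower (5.33 to 7.13). Ppargc1a averaged 0.617 and 0.626, a ratio of 0.985 (0.899 to 1.08). Among the peroxisome membrane and import genes, Abcd3, which encodes the peroxisomal importer of acyl-CoA esters, was 2.13-fold lower. Pex5, the import receptor, Pex14, its docking partner, and Pex11a, which takes part in peroxisome division, were 1.21-fold to 1.85-fold lower. Acot4 was 4.02-fold lower (2.61 to 6.51), and Acot3 was 11.7-fold lower (3.22 to 97.1) on 2 UMIs. Eci2 was 3.40-fold lower (2.68 to 4.39).

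Ucp2 was the member past 2-fold higher, with 0.0159 in PT-injury/repair (13 UMIs) and 0.00545 in the others, a ratio of 2.91 (1.47 to 5.37). Pdk4 averaged 0.0330 in PT-injury/repair (27 UMIs) and 0.0196 in the others, a ratio of 1.68 (1.08 to 2.51). Ucp2 was highest in Immune cells, and the 5 immune markers (Ptprc, Csf1r, Cd74, Itgam and Mrc1) summed to 0.122 in PT-injury/repair, within the 0.0204 to 0.272 of the other 5 clusters. Csf1r alone gave 0.0818 of that sum, and the markers were not alike. Itgam and Mrc1 were at 0 in PT-injury/repair, and Ptprc, at 0.0110, lay within the range of the others. Cd74, at 0.0293, lay above the 0.00823 to 0.0241 of the others. Tubule identity genes were lower as well, as the 8 proximal tubule markers summed to 4.01 in PT-injury/repair and to between 15.3 and 38.8 in the others. Their part in the members' values was not tested.

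The treated and untreated proximal tubule pools differed past 2-fold in few members. Of the 42 members at the floor, 3 were past 2-fold lower in Cis9w, against 2.03% of all 10656 genes at the floor, and 1 was past 2-fold higher, against 2.51%. The other 38 were not past 2-fold. By the authors' deposited table, the members' median log2 fold change was -0.08, against 0.03 for all genes, with 25 members below 0 and 17 above, where 45.1% of all genes were below 0. The same 4 genes had a p under 0.05 by the authors' deposited table, where 1.78% of all genes at the floor were lower and 1.51% higher by that rule. They also had a p under 0.01 by the authors' deposited table, where the shares of all genes were 1.29% lower and 0.845% higher. All members together took 0.657% of the UMIs in Cis9w and 0.780% in CT9w, and 0.482% and 0.538% without Acsm2.

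Acsm3 was the lowest member in Cis9w. It averaged 0.131 normalised UMIs per nucleus in Cis9w (401 UMIs) and 0.524 in CT9w (959 UMIs), 3.99-fold lower (3.55 to 4.50). The authors' deposited table lists p = 1.88e-10 for it. Acsm3 lies on chromosome 7 at 119760923 to 119787513 of mm10 and overlaps Eri2 on the opposite strand. Eri2 had 186 UMIs in Cis9w and 227 UMIs in CT9w, fewer than Acsm3 in both pools. The Cis9w pool was the deeper, with 8557662 UMIs against 5123727, so Eri2 was lower in Cis9w too. The strand setting of the counting was not given, so reads of Acsm3 and Eri2 may be mixed.

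Ehhadh averaged 0.233 in Cis9w (714 UMIs) and 0.563 in CT9w (1031 UMIs), 2.41-fold lower (2.19 to 2.66). For it the authors' deposited table lists p = 0.000142. Crot averaged 0.351 in Cis9w (1073 UMIs) and 0.726 in CT9w (1330 UMIs), 2.07-fold lower (1.91 to 2.25). The authors' deposited table lists p = 0.00409 for Crot. Both genes act in peroxisomal chain shortening and in the export of its products. Crot lay just past the 2-fold line, and the nearest member short of it was Acadm, with 0.275 in Cis9w and 0.425 in CT9w, 1.55-fold lower (1.40 to 1.71).

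Hao2 was higher. It averaged 0.517 in Cis9w (1583 UMIs) and 0.225 in CT9w (412 UMIs), a ratio of 2.30 (2.06 to 2.57). The authors' deposited table lists p = 0.00253 for it. Ehhadh, Crot and Hao2 overlap no other gene that is listed in the proximal tubule table.

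**Figure D3:**
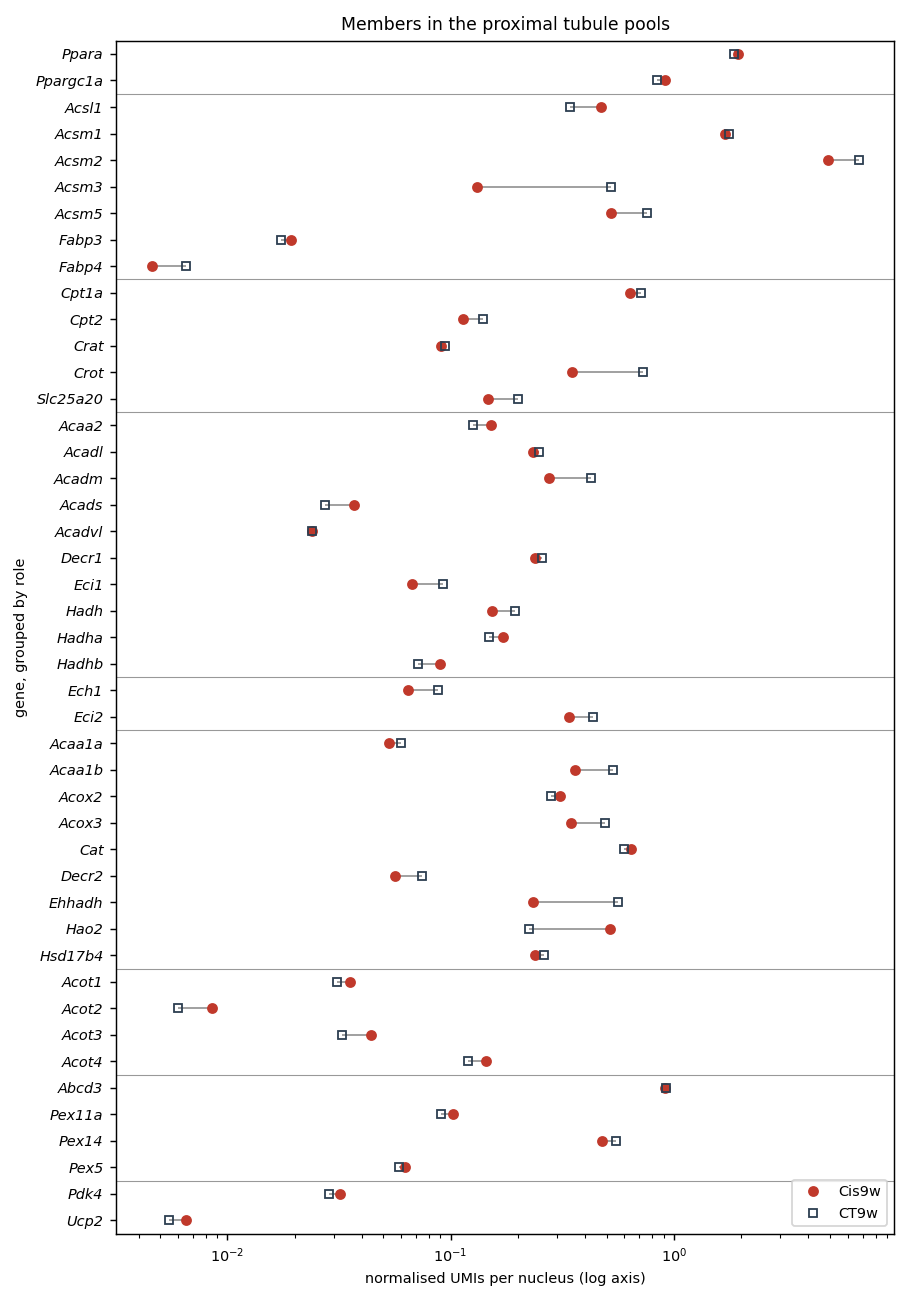
Averages of the 45 members in the proximal tubule pools of Cis9w (filled circles) and CT9w (open squares) in normalised UMIs per nucleus on a log axis, grouped by role. The widest gaps belong to Acsm3, Ehhadh and Crot, lower in Cis9w, and to Hao2, higher in Cis9w.

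Markers of the third tubule segment were lower in the same pools. Of 4 such markers, 3 were past 2-fold lower, and their summed level was 1.94 in Cis9w and 6.91 in CT9w. Slc7a13, an amino acid transporter gene of that segment, was 3.49-fold lower and Cyp7b1, an oxysterol hydroxylase gene, 6.27-fold lower, while Slc5a10 had a ratio of 1.03 (0.934 to 1.13). None of the 4 first-segment markers was past 2-fold, and they summed to 9.89 in Cis9w and 8.15 in CT9w. Injured tubule markers summed to 1.10 in Cis9w and 0.374 in CT9w, with 5 of 5 at the floor past 2-fold higher, and Krt20, Sox9 and Ccl2 were at 0 UMIs in CT9w. Mitochondrial transcripts, such as mt-Co1 with 0.373 in Cis9w and 0.596 in CT9w, were lower, and so was Kap, with 0.866 and 3.22. The part of all these in the members' differences was not tested.

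Set beside their segment values, the third-segment members had unlike values in Cis9w. Acsm3, Crot and Ehhadh were lower. Acox2 averaged 0.310 in Cis9w (949 UMIs) and 0.282 in CT9w (517 UMIs), a ratio of 1.10 (0.986 to 1.23). Hao2, 5.84 times as high in PT-S3-2 as in PT-S1, was higher in Cis9w. Acadm had a ratio of 0.647 (0.586 to 0.714), Acsm1 of 0.965 (0.923 to 1.01) and Pdk4 of 1.13 (0.798 to 1.61). Eci2, an isomerase gene of both organelles, had a ratio of 0.781 (0.711 to 0.857). Its relative Ech1, not past 2-fold between PT-S3-2 and PT-S1, had one of 0.736 (0.595 to 0.912). Acot1, a cytosolic thioesterase gene, had a ratio of 1.13 (0.816 to 1.59). The part of segment make-up in these values was not tested.

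Neither regulator was past 2-fold. Ppara averaged 1.95 in Cis9w (5954 UMIs) and 1.86 in CT9w (3407 UMIs), a ratio of 1.05 (1.00 to 1.09). Ppargc1a averaged 0.911 in Cis9w (2788 UMIs) and 0.837 in CT9w (1534 UMIs), a ratio of 1.09 (1.02 to 1.16). Both intervals leave out a change as large as 2-fold in these pools, as far as counting error goes.

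Apart from Acsm3, the activation genes lay within 1.5-fold. Acsm2 averaged 4.91 in Cis9w (15014 UMIs) and 6.75 in CT9w (12362 UMIs), 1.38-fold lower (1.34 to 1.41). The authors' deposited table lists p = 0.692 for it. Acsm5 was 1.46-fold lower (1.36 to 1.57), and Acsm1 had a ratio of 0.965 (0.923 to 1.01). Acsm1 overlaps 2 antisense genes of more UMIs, with 13503 UMIs in Cis9w and 6553 in CT9w for Gm19950, and 9866 in Cis9w and 5505 in CT9w for Gm45792. The strand setting of the counting was not found in the labels, so reads of Acsm1 and these genes may be mixed. Acsl1 had a ratio of 1.38 (1.26 to 1.52).

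In the carnitine shuttle, all 5 genes had values below 1 and Crot alone was past 2-fold. Cpt1a averaged 0.635 in Cis9w (1944 UMIs) and 0.715 in CT9w (1309 UMIs), a ratio of 0.889 (0.829 to 0.954). Cpt2 averaged 0.114 in Cis9w (348 UMIs) and 0.140 in CT9w (257 UMIs), a ratio of 0.811 (0.688 to 0.956). The ratio was 0.736 (0.640 to 0.847) for Slc25a20 and 0.955 (0.787 to 1.16) for Crat.

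None of the 10 mitochondrial oxidation genes was past 2-fold, and by the authors' deposited table their median was -0.06 on the log2 scale. They ranged from -0.63 for Acadm to 0.42 for Acads, the short-chain dehydrogenase gene, which had 113 UMIs in Cis9w and 50 UMIs in CT9w. Hadha and Hadhb, which lie on chromosome 5 on opposite strands, had ratios of 1.16 (0.997 to 1.34) and 1.26 (1.02 to 1.56). Hadhb shares 18.1% of its 50-base transcript words with Gm13910, so part of its UMIs may belong there. Acaa2 had a ratio of 1.21 (1.03 to 1.42), Hadh of 0.793 (0.690 to 0.913) and Eci1, an enoyl-CoA isomerase gene, of 0.726 (0.589 to 0.894). Acadl, Acadvl and Decr1 had ratios between 0.927 and 0.993.

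Among the 9 peroxisomal oxidation genes, the 7 beside Ehhadh and Hao2 were not past 2-fold. Acaa1b averaged 0.360 in Cis9w (1100 UMIs) and 0.533 in CT9w (976 UMIs), 1.48-fold lower (1.36 to 1.62). Acaa1b shares 30.5% of its 50-base words with its paralogue Acaa1a, which had a ratio of 0.882 (0.688 to 1.13). Acaa1a also overlaps Slc22a14 on the opposite strand, which had more UMIs, 720 in Cis9w and 448 in CT9w. Acox3 had a ratio of 0.706 (0.645 to 0.772) and Decr2, a reductase gene for unsaturated chains, of 0.762 (0.605 to 0.961).

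Cat averaged 0.644 in Cis9w (1969 UMIs) and 0.599 in CT9w (1097 UMIs), a ratio of 1.07 (0.998 to 1.16). Hsd17b4, the bifunctional enzyme of branched and very long chains, averaged 0.240 in Cis9w (734 UMIs) and 0.261 in CT9w (478 UMIs), a ratio of 0.919 (0.818 to 1.03). Both counting intervals include 1.

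Peroxisome membrane and import genes lay close to equal. Pex5 averaged 0.0628 in Cis9w (192 UMIs) and 0.0584 in CT9w (107 UMIs), a ratio of 1.07 (0.844 to 1.37). Abcd3 had a ratio of 0.989 (0.931 to 1.05), Pex14 of 0.867 (0.800 to 0.940) and Pex11a of 1.13 (0.935 to 1.38). The 3 thioesterase genes at the floor had values above 1, and Acot1 averaged 0.0353 in Cis9w (108 UMIs) and 0.0311 in CT9w (57 UMIs). Acot3 had a ratio of 1.35 (0.987 to 1.86) and Acot4, a peroxisomal thioesterase gene, of 1.21 (1.02 to 1.42). Both overlap the antisense gene 4732463B04Rik, which had 1048 UMIs in Cis9w and 610 UMIs in CT9w, more than either, so their reads may be mixed with it.

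The remaining members rested on few UMIs. Fabp3, a fatty acid binding protein of muscle and other oxidative tissues, averaged 0.0193 in Cis9w (59 UMIs) and 0.0175 in CT9w (32 UMIs), a ratio of 1.10 (0.706 to 1.75). It overlaps Zcchc17 on the opposite strand, which had more UMIs, 261 in Cis9w and 152 in CT9w. Pdk4 averaged 0.0320 in Cis9w (98 UMIs) and 0.0284 in CT9w (52 UMIs), a ratio of 1.13 (0.798 to 1.61). No 2-fold difference was seen in either gene at this depth.

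Below the floor were 3 members. Fabp4 had 14 UMIs in Cis9w and 12 UMIs in CT9w, a ratio of 0.699 (0.300 to 1.65). Ucp2 had 20 UMIs in Cis9w and 10 UMIs in CT9w, and Acot2, a mitochondrial thioesterase gene, had 26 UMIs and 11 UMIs. For these 3 a 2-fold difference was not detectable at this depth, as their intervals reach past 2-fold. Endothelial markers, which share their cluster with Fabp4, summed to 0.216 in Cis9w and 0.140 in CT9w, with 1 of the 4 at the floor past 2-fold higher and none of the 6 at 0 UMIs.

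**Figure D4:**
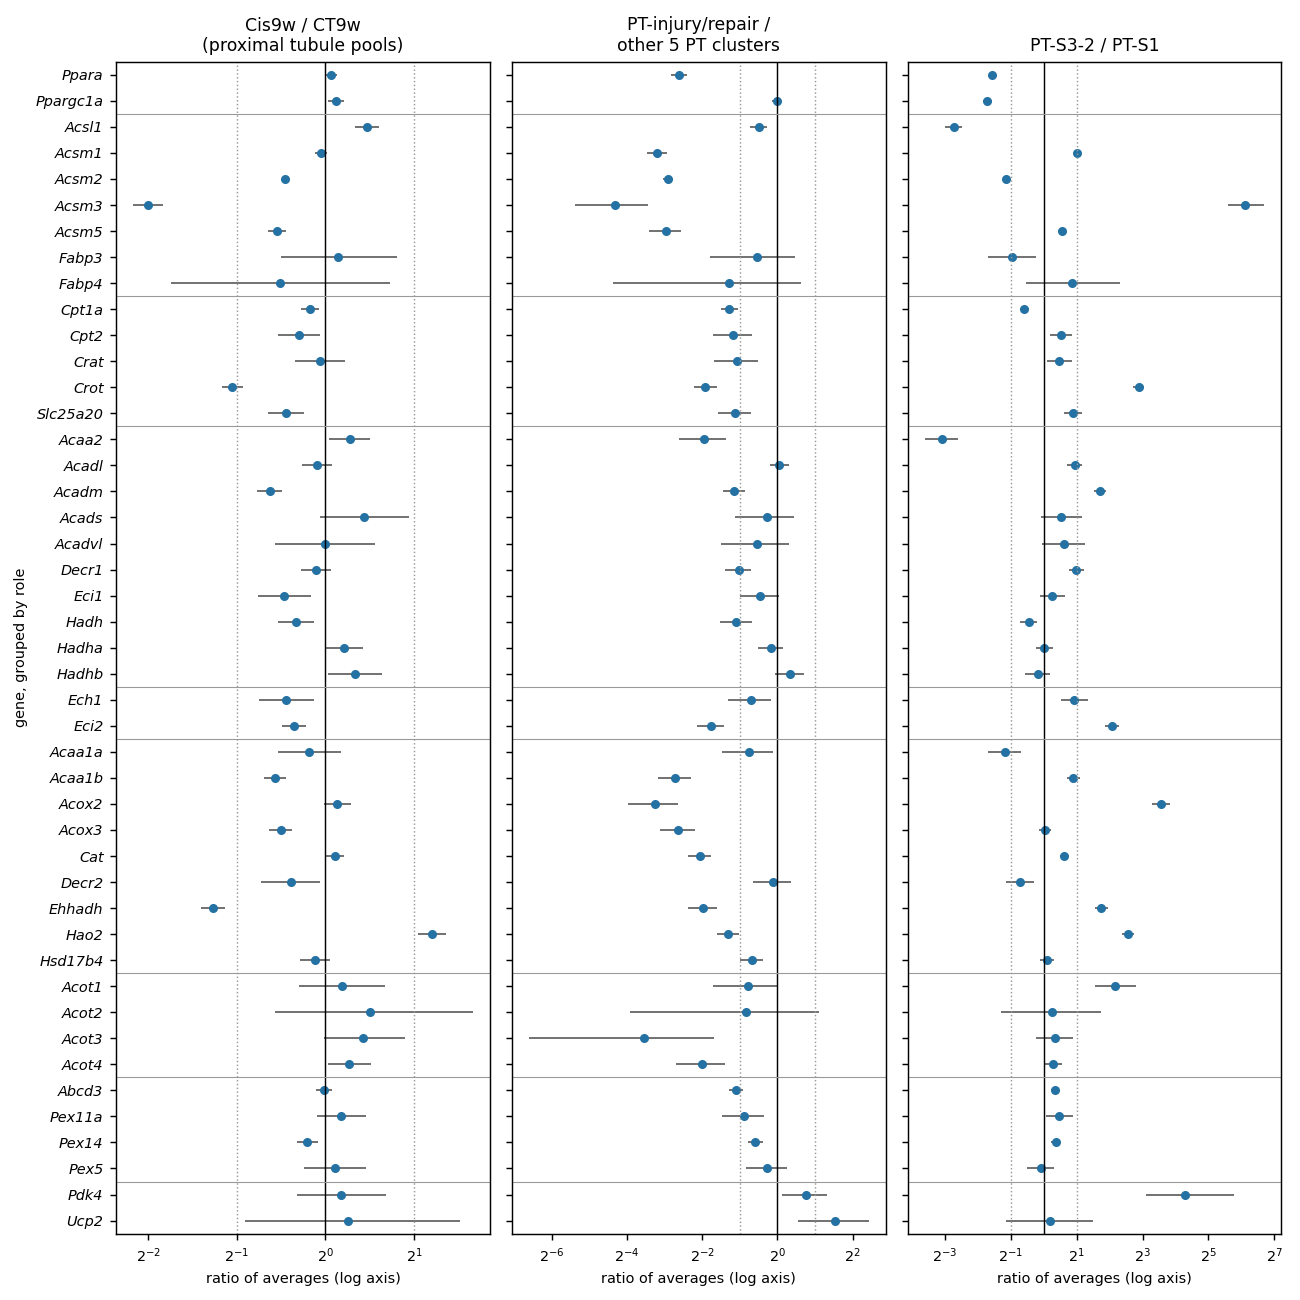
Ratio of averages (log axes, points) with counting intervals (lines) for each member in 3 contrasts, Cis9w over CT9w, PT-injury/repair over the other 5 proximal tubule clusters, and PT-S3-2 over PT-S1; dotted lines mark 2-fold. In the first panel 4 members lie past the dotted lines, in the middle panel most lie left of 1, and Acsm3 lies farthest right in the last panel.

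Other genes of the pathway were read from a list of 91, also chosen with earlier results of these data known. Of these, 88 were in the proximal tubule table and 75 at the floor. In Cis9w 4 were past 2-fold lower (5.33%, against 2.03% of all genes at the floor), 1 was past 2-fold higher (against 2.51% of all genes) and 70 were not past 2-fold. Their median by the authors' deposited table was -0.15 on the log2 scale, against 0.03 for all genes. Cd36, a fatty acid uptake receptor gene, averaged 0.254 in Cis9w and 0.689 in CT9w, 2.71-fold lower (2.48 to 2.97). Bdh1, a ketone body dehydrogenase gene, was 2.84-fold lower (2.32 to 3.48). The peroxisomal genes Agps, of ether lipid synthesis, and Amacr, a racemase for branched chains, were 2.31-fold lower (2.19 to 2.44) and 2.12-fold lower (1.89 to 2.39).

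Acsl4, a synthetase that prefers polyunsaturated chains, was the gene past 2-fold higher, at 0.158 in Cis9w and 0.0764 in CT9w, a ratio of 2.07 (1.71 to 2.52). It averaged 0.184 in PT-injury/repair and 0.0846 in the other 5 proximal tubule clusters. Cd36, Bdh1, Agps and Amacr were each higher in PT-S3-2 than in PT-S1, with 1.10 and 0.0170 for Cd36 and 1.95 and 0.158 for Agps. In PT-injury/repair, 36 of 78 list genes at the floor were past 2-fold lower (46.2%, against 10.2% of all genes) and 6 past 2-fold higher (against 21.8% of all genes). Their median log2 ratio was -0.78, against 0.22 for all genes.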

How the data were processed

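RNA of single nuclei was measured in 4 samples, 2 per group. The submitters' processing notes name Cell Ranger 5.0.1 and mm10. For clustering, nucleus filters, doublets, strand, the test and its adjustment, methods were not given in the sources used here. Both proximal tubule pools together held 57.6% of the UMI total of the 6 proximal tubule clusters.

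The deposited averages are a signal, UMIs divided by size factors, pooled by the authors, with column sums of 2797 (proximal tubule) and 2008 (clusters). The log2 fold changes and p-values are the authors' own, per the file headers. UMI sums were recovered as whole multiples of 1 step per column, within 0.1 UMI for at least 99.995% of values, and with 1 added to UMI and size-factor sums they gave the deposited log2 fold changes within 0.0162. No count model was run, as each group has 1 pool. Levels were compared within a table only, since each had its own scaling.

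A gene counted at the floor when the mean of both values compared reached the median over all genes. Cluster ratios had 1 UMI added for calls and none for the values printed. All members were reported. Values in full are given for the members past 2-fold and for most of a set of 18 that includes Acsm3, Ehhadh and Hao2. The pool values of Acadm, Fabp4 and Ucp2, also of that set, are given in part. The members and lists were chosen with earlier results of these data known. Annotation was GENCODE M21 (21288 of 21312 IDs matched). Python 3.11.15, scipy 1.17.1 and pandas 2.3.3 were used, and the recovery of UMIs was tested on simulated data. Alternatives were other floors, folds, pseudocounts, centring and comparators.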

Additional observations from a re-analysis of the deposited data

How the results depend on the processing

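No paired analysis was possible because no column is labelled with a sample. For the same reason no replicate could be left out. In the proximal tubule pools the counts of members past 2-fold lower and higher stayed within 3 to 4 and at 1 under the alternatives run, and the members' median log2 fold change stayed within -0.14 and -0.07. For the list of other pathway genes, the count past 2-fold higher was 3 with no floor, 3 at a 1.5-fold threshold and 0 at a deposited p under 0.01, and the count lower was 8 at the 1.5-fold threshold. In PT-injury/repair the count past 2-fold higher was 0 with a floor at the 75th percentile, 2 at the 1.5-fold threshold, and 2 without PT-S2/S3 or without PT-S3-2 in the comparator. The members' median log2 ratio was -1.30 with that floor, -1.28 with the median of all genes subtracted, -1.19 without PT-S1, -0.91 without PT-S2/S3 and -0.96 without PT-S3-2. The count lower lay between 19 and 29. Weighting clusters by their size-factor sums gave a median tubule share of 72.7%, against 57.1% for all genes. Alternatives chosen after seeing the data moved the segment counts, namely PT-S3-1 in place of PT-S3-2 (17 higher, 3 lower) and a 1.5-fold threshold (17 higher). The cause of these shifts was not tested, beside the changed thresholds and comparators. Members under 30 UMIs per pool are limited by depth.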
